A study of Mus musculus with 23 samples.

Results

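The 10 genes described here mark the mural cells of blood vessels, which are the pericytes of capillaries and the smooth muscle cells of arterioles and arteries. They were taken by symbol from a table of gene counts of the mouse hippocampus: Pdgfrb, Cspg4, Notch3, Rgs5, Vtn, Abcc9, Kcnj8, Acta2, Tagln and Myh11. All 10 had a row of their own among the 24421 rows of the table, and all 10 were among the 15475 genes that passed the filter on low counts. The lowest count of any of them in any library was 35 reads, for Tagln in sPIA female 3, so no gene passed through a single group alone.

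The libraries came from the hippocampus of mouse pups killed on postnatal day 14 after repeated blood draws (phlebotomy-induced anemia, PIA), and the study asked how the dose of anemia and the sex of the pup bear on the hippocampal transcriptome. The goal of bleeding was a haematocrit of 25% in the moderate level (mPIA) and of 18% in the severe level (sPIA), and the controls (NBC, non-bled) had a needle prick at the neck without any blood taken. Blood was drawn from the facial vein from postnatal day 3 on, first 5.25 µl per g at 2 draws a day and, once the goal was met, 3.5 µl per g daily. There were 4 libraries in each of NBC, mPIA and sPIA females and mPIA and sPIA males, and 3 in NBC males (numbers 2, 3 and 4). Each library was read as a separate pup, since the design text speaks of 4 animals of each sex and level, and the sources used here do not name the mouse strain. The tissue was whole hippocampus, and in such bulk RNA fewer mural cells and less RNA per mural cell cannot be told apart.

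Library totals lay between 15.2 and 26.4 M counts (M, mega-counts), with mPIA female 3 apart at 44.4 M. Levels are given as CPM, counts scaled to libraries of equal size, and where genes are compared with each other as RPKM, which also divides by the length of the exons. The hippocampal neuron markers were high in every library (summed level 9548 to 11590 CPM over 13 genes). Markers of tissue that adjoins the hippocampus varied strongly within groups: the summed level of 15 choroid plexus genes ran from 153 to 6661 CPM among the 3 NBC males alone, and that of 20 vascular and meningeal fibroblast genes from 361 to 933 CPM. NBC males 3 and 4 held the high values of both lists. Among females, NBC female 2 and sPIA female 2 had choroid plexus sums of 2562 and 2004 CPM, and the other female libraries 120 to 448 CPM. The highest fibroblast sum of a female library was 622 CPM, also in sPIA female 2.

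Pericytes wrap capillaries and share their basement membrane with the endothelium. Endothelial cells secrete PDGF-B, which holds pericytes to the vessel through the receptor encoded by Pdgfrb, and Notch3 on mural cells receives signals from Jagged and Delta ligands of neighbouring cells. The contractile genes Acta2, Tagln and Myh11 are most abundant in the smooth muscle of arterioles and arteries, and low in pericytes of the capillary bed.

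Across the 10 genes, 1 change passed the test: Abcc9, a regulatory subunit of ATP-sensitive potassium channels, was 1.57-fold higher in severely anemic females than in female controls. The share of all genes tested that passed in that comparison was 16%, with 8.12% higher and 7.86% lower, so 1 of 10 is not above the background. None of the 10 passed in mPIA against NBC females (background 0.00646%), mPIA against NBC males (0.653%), sPIA against NBC males (0.194%), sPIA against mPIA females (16.1%) or sPIA against mPIA males (4.92%). At an unadjusted p under 0.05 the 10 genes gave 1, 1, 1 and 1 in the comparisons of mPIA females, mPIA males, sPIA females and sPIA males with NBC, and 1 and 3 in those of sPIA with mPIA in females and males. Over all 15475 genes these unadjusted counts were 55, 2475, 4502, 1880, 4557 and 3447. The 55 in mPIA females is below the share of 0.05 that chance alone would give, so p-values there ran large. NBC and mPIA females share the prefixes of their library codes (described below), which the reported fit did not use. With the prefix as a block, 6 of 14680 genes passed there, and no member did. The median log2 change of the 10 genes was 0.16 in mPIA females, -0.15 in mPIA males, 0 in sPIA females and -0.12 in sPIA males, each against NBC, where the median of all genes lay between -0.01 and 0.01. All 10 were positive in mPIA females (46.4% of all genes). In mPIA males 4 of 10 were positive (51.7% of all genes), in sPIA females 5 (50%) and in sPIA males 4 (50.2%). Changes and their tests are from edgeR's quasi-likelihood test, with Benjamini-Hochberg adjustment over all genes tested.

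**Figure D1:**
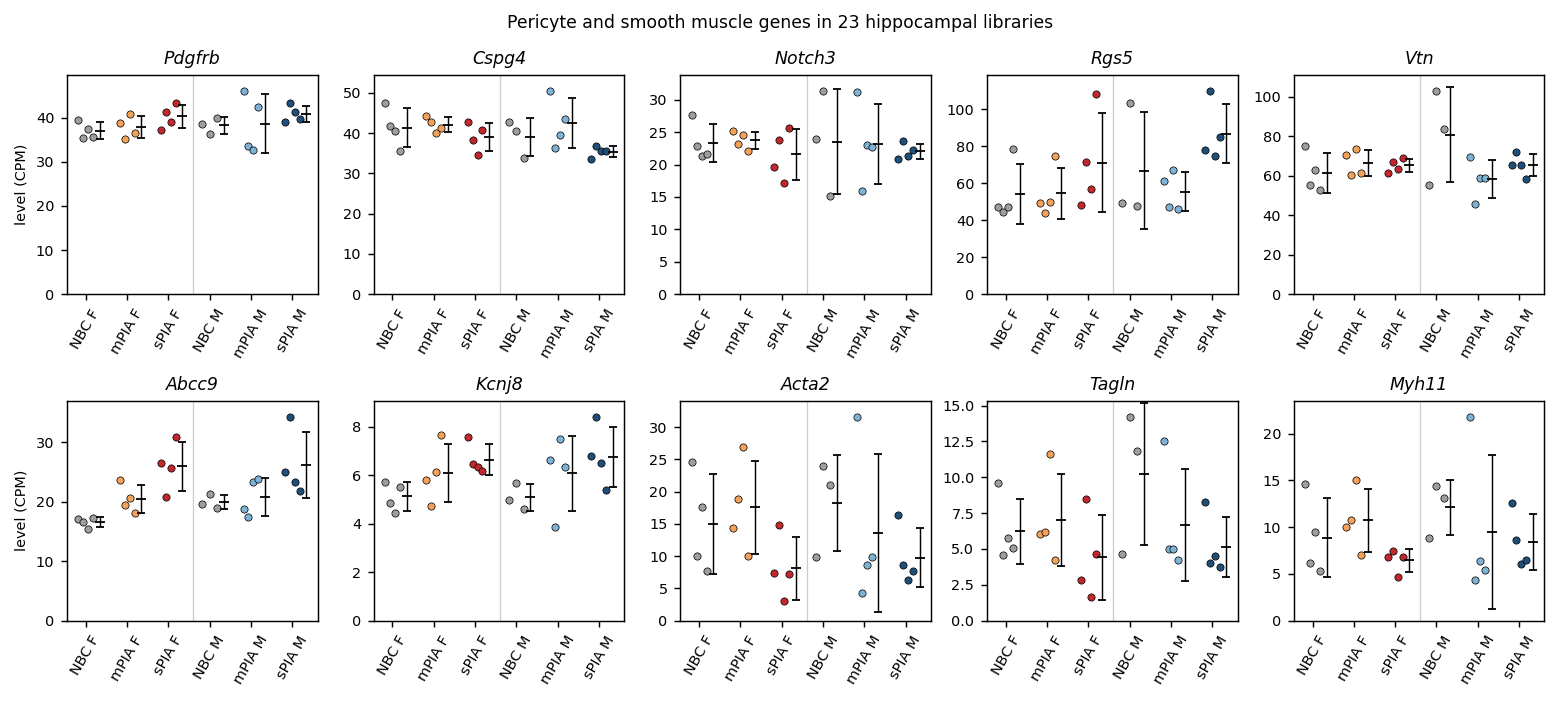
Level of each of the 10 genes (CPM, axis from 0) in every library, by group (F female, M male); points are libraries and the bars beside them are the mean and SD. Abcc9 lies at 15.49 to 17.2 in NBC females and at 20.9 to 30.9 in sPIA females, while Acta2, Tagln and Myh11 spread widely within every group.

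Per length of exon, Vtn was the most abundant of the 10 genes in each of the 23 libraries (26.2 to 59 RPKM). Rgs5 came next (14.2 RPKM, 9.69 to 24.2), then Pdgfrb (7.08 RPKM, 5.96 to 8.41). The ranges of Vtn and Rgs5 did not overlap, nor did those of Rgs5 and Pdgfrb. Acta2 followed at a mean of 6.63 RPKM, but with a range of 1.49 to 15.51 that overlapped the range of every gene but Vtn. Cspg4 (4.92 RPKM, 4.13 to 6.22), Tagln (4.05, 1.02 to 8.91), Notch3 (2.86, 1.89 to 3.92), Abcc9 (2.6, 1.85 to 4.09), Kcnj8 (2.36, 1.52 to 3.3) and Myh11 (1.4, 0.664 to 3.3) overlapped their neighbours in this order. The order mixes cell types, since Cspg4 and Vtn are also known from other cells of the brain or body.

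Pdgfrb was the steadiest of the 10. Its level was 39.5, 35.3, 37.4 and 35.7 CPM in NBC females, 38.8, 35.1, 40.7 and 36.5 CPM in mPIA females and 37.3, 41.3, 39.1 and 43.4 CPM in sPIA females. In males it was 38.5, 36.2 and 39.99 CPM in NBC, 46.1, 33.5, 32.6 and 42.4 CPM in mPIA and 39.04, 43.2, 41.3 and 39.6 CPM in sPIA. All groups overlapped, and the spread within groups (SD 0.13 on the log2 scale) was below the 0.17 of the median gene. The log2 change of Pdgfrb in sPIA against NBC was 0.12 (95% interval -0.06 to 0.31) in females and 0.09 (-0.11 to 0.29) in males, and in mPIA it was 0.03 (-0.15 to 0.22) and 0.01 (-0.18 to 0.21). These intervals are narrow, but groups of 3 or 4 libraries do not exclude changes of Pdgfrb beyond them.

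Its ligand and sister receptor varied more among sPIA females than Pdgfrb did, and neither passed in any comparison. Pdgfb, the PDGF-B chain, lay at 32.9 ± 2.16 CPM in NBC females, 31.1 ± 5.72 CPM in sPIA females and 32.1 ± 4.14 CPM in sPIA males (SD, n = 4 each). Pdgfra, the receptor that marks oligodendrocyte precursors, lay at 137 ± 3.44 CPM in NBC females and 132 ± 22.7 CPM in sPIA females. It was higher per length than Pdgfrb in every group (15.1 to 17.4 RPKM). Of the 5 listed PDGF genes other than Pdgfrb, 0 passed in any of the comparisons.

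Cspg4 encodes the NG2 proteoglycan, which pericytes share with oligodendrocyte precursors. Its level was 47.4, 41.8, 40.6 and 35.5 CPM in NBC females, 44.3, 42.8, 39.9 and 41.3 CPM in mPIA females and 42.7, 38.2, 34.6 and 40.8 CPM in sPIA females. In males it was 42.7, 40.6 and 33.8 CPM in NBC, 50.5, 36.2, 39.6 and 43.6 CPM in mPIA and 33.6, 36.75, 35.5 and 35.7 CPM in sPIA. The sPIA males lay low and close together, but their highest library stood above the lowest of mPIA males. The log2 difference of Cspg4 between sPIA and mPIA males was -0.26 (SE 0.1, adjusted p = 0.105). The oligodendrocyte precursor list moved little beside it: 0 of 13 genes passed in that comparison, with a median of -0.08, and the summed level was 893 to 1005 CPM in sPIA males and 867 to 1055 CPM in mPIA males. Its part in the levels of Cspg4 was not tested.

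Notch3, the Notch receptor of arterial smooth muscle and pericytes, lay at 27.7, 22.9, 21.4 and 21.6 CPM in NBC females, 25.1, 23.3, 24.5 and 22.1 CPM in mPIA females and 19.7, 23.8, 17.1 and 25.7 CPM in sPIA females. Male libraries gave 23.98, 31.4 and 15.2 CPM of Notch3 in NBC, 31.1, 15.99, 23.02 and 22.7 CPM in mPIA and 20.9, 23.6, 21.4 and 22.3 CPM in sPIA. The groups overlapped throughout, and the log2 changes against NBC ran from -0.12 to 0.02 with SE of 0.18 to 0.19. NBC males 3 and 4 held the highest and the lowest value of all 23 libraries. The ligand Jag1 was at 9.47 ± 2.03 CPM in NBC females and 9.89 ± 1.8 CPM in sPIA females (SD, n = 4 each). Of 15 other Notch ligands, receptors and targets, 1 passed in sPIA against NBC females, where 16% of all genes did. It was Rbpj, the DNA-binding partner of all Notch receptors, which rose (log2 0.3, SE 0.1, adjusted p = 0.0415), and the other 14 did not pass. In sPIA males 0 of the 15 passed, where 0.194% of all genes did.

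Abcc9 and Kcnj8 encode the regulatory subunit SUR2 and the pore Kir6.1 of the ATP-sensitive potassium channel of mural cells, which opens when the energy supply of the cell falls and lets the vessel relax. Both are on chromosome 6 in GRCm38, on the minus strand and next to each other: Kcnj8 at 142564837 to 142571614 and Abcc9 at 142587862 to 142702315.

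Abcc9 lay at 17.1, 16.6, 15.49 and 17.2 CPM in NBC females, at 23.6, 19.4, 20.7 and 18.1 CPM in mPIA females and at 26.6, 20.9, 25.7 and 30.9 CPM in sPIA females. All mPIA and all sPIA females stood above all NBC females, while mPIA and sPIA females overlapped. Group means were 16.6 ± 0.794, 20.5 ± 2.36 and 26 ± 4.13 CPM (SD, n = 4 each). Abcc9 rose in sPIA against NBC females by 0.65 on the log2 scale (SE 0.13, 95% interval 0.38 to 0.92, adjusted p = 0.0015). Groups that did not overlap with the anemic one higher were found for 9.85% of all genes in that comparison. In mPIA females the log2 change of Abcc9 was 0.3 (SE 0.13, adjusted p = 1), where 0.795% of all genes had all mPIA libraries above all NBC libraries. The comparison of sPIA with mPIA females gave 0.34 (SE 0.13, adjusted p = 0.0697).

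Male libraries gave Abcc9 at 19.7, 21.2 and 18.9 CPM in NBC, 18.8, 17.4, 23.3 and 23.8 CPM in mPIA and 25.03, 34.3, 23.4 and 21.8 CPM in sPIA. All sPIA males stood above all NBC males (3.21% of all genes did so), the closest libraries being 21.8 and 21.2 CPM, and sPIA male 2 was the highest of all 23 libraries. Abcc9 did not pass in sPIA against NBC males, with a log2 change of 0.39 (SE 0.14, 95% interval 0.1 to 0.68, adjusted p = 0.249). In mPIA against NBC males it was 0.06 (SE 0.14, adjusted p = 0.865). The female and the male change in severe anemia were not shown to differ: the difference was 0.26 (SE 0.19, 95% interval -0.13 to 0.65, adjusted p = 0.526), and the female controls lay lower than the male controls, at 16.6 against 20 ± 1.17 CPM (SD, n = 3).

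The rise of Abcc9 in sPIA females passed in 8 of 8 other settings (log2 0.53 to 0.66, adjusted p = 7.22e-05 to 0.0181) and with each of the 8 libraries of the comparison left out in turn (0.56 to 0.75, adjusted p = 0.000659 to 0.0083). The library codes of NBC and sPIA females share no prefix, so for these groups the codes and the anemia cannot be told apart. The same holds for mPIA against NBC males and for sPIA against mPIA in both sexes. The labels also give an S number, 13 to 20 in the sPIA libraries and 38 to 55 in the NBC and mPIA libraries. In every comparison of sPIA with another level this number and the severe anemia cannot be told apart.

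Kcnj8 was lower in counts and noisier. It lay at 5.73, 4.85, 4.44 and 5.53 CPM in NBC females, 5.82, 4.74, 6.13 and 7.67 CPM in mPIA females and 7.58, 6.48, 6.35 and 6.18 CPM in sPIA females. In males it lay at 4.98, 5.69 and 4.61 CPM in NBC, 6.63, 3.88, 7.48 and 6.34 CPM in mPIA and 6.78, 8.4, 6.49 and 5.41 CPM in sPIA. All sPIA females stood above all NBC females (9.85% of all genes did so), and sPIA and NBC males overlapped. The log2 change of Kcnj8 in severe anemia was 0.37 in females (SE 0.19, 95% interval -0.01 to 0.75, adjusted p = 0.184) and 0.41 in males (SE 0.2, 0 to 0.82, adjusted p = 0.414), and in moderate anemia it was 0.25 in both sexes (adjusted p = 1 in females and 0.561 in males). These intervals do not tell a change like that of Abcc9 from none. Across the 23 libraries, with group means removed, the levels of Kcnj8 and Abcc9 gave Pearson r = 0.49 and Spearman rho = 0.38 (within-group permutation, adjusted p = 0.102 and 0.176 over 18 pairs of genes), and r = 0.34 without the 2 libraries farthest from the median of Kcnj8.

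The subunits of the channel of neurons and pancreatic beta cells, Kcnj11 (Kir6.2) and Abcc8 (SUR1), were more abundant per length than Kcnj8 and Abcc9 in every group, at 5 to 7.17 and 6.66 to 8.81 RPKM, and neither passed in any comparison. In sPIA females Kcnj11 was at 15.7 ± 2.99 CPM against 18.8 ± 1.22 CPM in NBC (log2 -0.25, SE 0.14, adjusted p = 0.248), and Abcc8 at 37.5 ± 5.1 against 39.7 ± 6.23 CPM (log2 -0.08, SE 0.17, adjusted p = 0.807; SD, n = 4 each).

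The 250 bases before the RefSeq start sites of this pair (GRCm38.p6, minus strand) are shown. They were picked because all sPIA females lay above all NBC females in both genes, which 9.85% of all genes did singly. They can also be read for the core letters that hypoxia-inducible factors bind, ACGTG or GCGTG on either strand, in capitals. The Kcnj8 window is chr6:142571615-142571864 and the Abcc9 window chr6:142702275-142702524.
Kcnj8: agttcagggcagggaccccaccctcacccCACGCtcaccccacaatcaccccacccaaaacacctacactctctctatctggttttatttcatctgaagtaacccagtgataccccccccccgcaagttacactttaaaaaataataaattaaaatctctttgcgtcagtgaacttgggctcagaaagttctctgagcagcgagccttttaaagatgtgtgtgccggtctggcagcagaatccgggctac
Abcc9: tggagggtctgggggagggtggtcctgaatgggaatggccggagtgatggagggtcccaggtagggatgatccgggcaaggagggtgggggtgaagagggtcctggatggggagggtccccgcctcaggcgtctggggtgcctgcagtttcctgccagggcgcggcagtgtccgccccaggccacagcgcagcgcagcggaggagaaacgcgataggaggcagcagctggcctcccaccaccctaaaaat
The Kcnj8 window held the letters on the reverse strand, 221 to 217 bases before the start, and the Abcc9 window did not hold them. With the 50 bases after the start included, 4 of the 7 members with a RefSeq window held them (Cspg4, Kcnj8, Notch3 and Vtn), against 43.773% of all 32851 windows. The letters TGGGAA, on either strand, were in 4 of 7 windows (Abcc9, Acta2, Kcnj8 and Vtn) and in 25.561% of all. Both motifs were chosen after the levels had been seen.

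**Figure D2:**
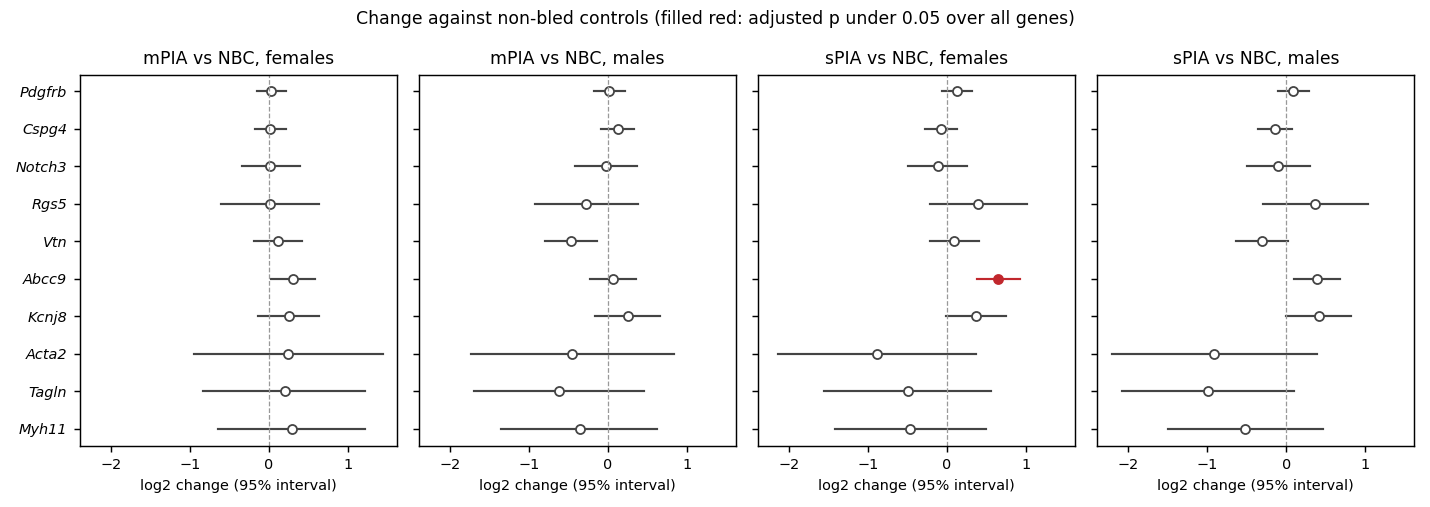
Log2 change of each gene against non-bled controls of the same sex with its 95% interval (horizontal axis), 1 panel for each level of anemia and sex; filled red marks an adjusted p under 0.05 over all genes. Abcc9 in sPIA females (0.65) is the filled point, and the intervals of Acta2, Tagln and Myh11 are the widest.

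Rgs5, a regulator of G protein signalling and a marker of brain pericytes, differed between libraries far more than Pdgfrb did. It lay at 47.2, 44.2, 47 and 78.6 CPM in NBC females, 49.5, 44.05, 50.04 and 74.7 CPM in mPIA females and 47.9, 71.6, 56.7 and 108 CPM in sPIA females. In males it lay at 49.1, 103.2 and 47.8 CPM in NBC, 60.96, 47.04, 67.3 and 45.9 CPM in mPIA and 77.7, 110, 74.6 and 85.1 CPM in sPIA. The sPIA males stood above all mPIA males (4.85% of all genes did so), with a log2 difference of 0.65 (SE 0.29, 95% interval 0.04 to 1.26, adjusted p = 0.196). Against NBC, severe anemia gave 0.39 (SE 0.29, adjusted p = 0.41) in females and 0.37 (SE 0.31, adjusted p = 0.679) in males, and the groups overlapped because NBC female 4 and NBC male 3 were high.

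The levels of Rgs5 followed the prefix of the library code in the labels, whose meaning no source used here states. Of the 23 libraries, 15 share their prefix with at least 1 other, in 6 prefixes. The 4 female libraries with prefix 86 (2 NBC, 2 mPIA) lay at 44 to 49.5 CPM of Rgs5, and the NBC and the mPIA library with prefix 90 at 47 and 50 CPM. Prefix 91, again 1 NBC and 1 mPIA female, gave 78.6 and 74.7 CPM. Among the codes with P, prefix P11 (sPIA female 2 and sPIA male 3) gave 71.6 and 74.6 CPM, prefix P13 (sPIA female 3 and NBC male 2) 56.7 and 49.1 CPM, and prefix P14 (sPIA female 4, NBC male 3 and sPIA male 4) 108, 103 and 85.1 CPM. Libraries of different anemia levels and sexes thus lay close where they shared a prefix. Over these 15 libraries the SD of log2 Rgs5 was 0.11 within prefixes and 0.43 within groups. For the other 9 genes the SD within prefixes lay between 0.09 (Pdgfrb) and 0.76 (Acta2) and was within 0.08 of the SD within groups. Within prefix P14 the sPIA male lay below the NBC male, and with the prefix as a block the change of Rgs5 in mPIA against NBC females was 0.03 on the log2 scale (0.01 without it). This grouping was looked at after the values had been seen and has no test.

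The genes most like Rgs5 across the 23 libraries, by Pearson r of log2 CPM with group means removed, were Ncstn (0.91, a subunit of gamma-secretase), Copa (0.89, a subunit of the COPI coat of transport vesicles) and Nuf2 (0.86, a kinetochore protein). All 3 are neighbours of Rgs5 on chromosome 1. In GRCm38, Rgs5 spans 169655501 to 169695813 on the plus strand, Nuf2 169497934 to 169531464 on the minus strand, Ncstn 172066013 to 172082795 on the minus strand and Copa 172082529 to 172122330 on the plus strand. Dcaf8, Ufc1 and Hsd17b7, each within 2.49 Mb of Rgs5, were also among its 20 most alike genes (r = 0.73 to 0.78). In all, 7 of those 20 lay within 5 Mb of Rgs5, where 72 of 12669 genes compared (0.568%) lie, and 0 of 20 did so for each of the other 9 members. The levels of Copa followed the same prefixes: 210 to 220 CPM for 86, 214 to 216 for 90, 278 to 301 for 91, 260 to 274 for P11, 213 to 228 for P13 and 297 to 324 for P14. Copa did not pass in any comparison, with 0.19 on the log2 scale (SE 0.15, adjusted p = 0.671) in sPIA against NBC males. The choice of a window of 5 Mb was also made after the positions had been seen. The sPIA and mPIA males share no prefix, so for the higher Rgs5 of sPIA males the prefix and the anemia cannot be told apart. This also holds for sPIA males 1 and 2, whose prefixes no other library has, at 77.7 and 110 CPM of Rgs5.

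**Figure D3:**
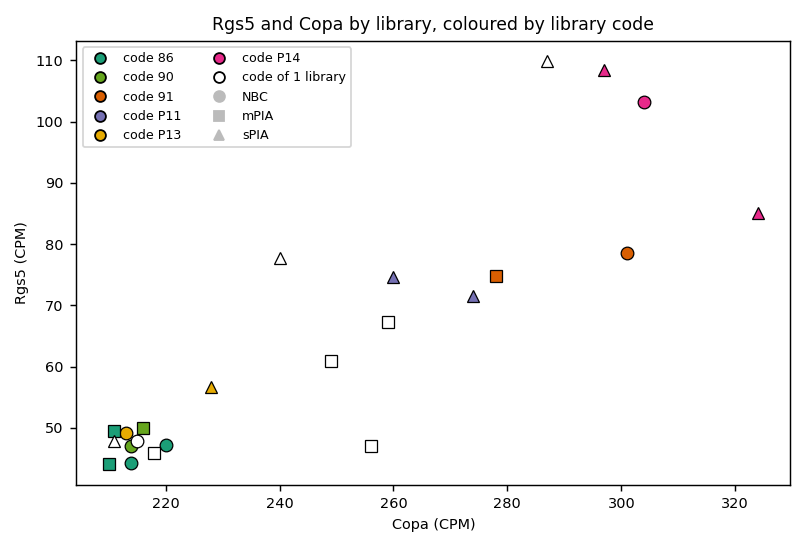
Rgs5 against its chromosome 1 neighbour Copa (both in CPM, axes not from 0) in the 23 libraries; colour is the prefix of the library code where at least 2 libraries share it, and shape is the anemia level. Libraries of 1 prefix lie close although they differ in anemia level and sex: prefixes 86, 90 and P13 lie at 210 to 228 of Copa, and 91, P11 and P14 at 260 to 324.

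The correlation of Rgs5 with Pdgfrb, the other general pericyte marker, was r = 0.04 (rho 0.13; within-group permutation, adjusted p = 0.864 and 0.605 over the 18 pairs). With Cldn5, the endothelial claudin of the blood-brain barrier, Rgs5 gave r = 0.51 (adjusted p = 0.0542) and rho = 0.55 (adjusted p = 0.0418). These permutations treat the libraries of a group as exchangeable and take no account of the code prefix, which Rgs5 followed, so the p-values for Rgs5 are given as values only. The genes most like Pdgfrb itself were Terf2 (r = 0.78), Slc19a1 (0.75) and Fmnl3 (0.71), of which the folate carrier Slc19a1 is known from brain pericytes.

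Vtn encodes vitronectin, a protein of the extracellular matrix and plasma that brain pericytes secrete. It lay at 74.95, 55.3, 62.8 and 52.5 CPM in NBC females, 70.4, 60.3, 73.7 and 61.3 CPM in mPIA females and 61.4, 66.9, 63.6 and 69.1 CPM in sPIA females. In males it lay at 55.2, 103 and 83.8 CPM in NBC, 69.6, 45.7, 58.7 and 58.8 CPM in mPIA and 65.3, 72.1, 65.2 and 58.5 CPM in sPIA. NBC males 3 and 4 were the highest of all libraries, and NBC male 2 lay among the anemic males. The log2 change of Vtn in males was -0.47 for mPIA (SE 0.16, adjusted p = 0.141) and -0.31 for sPIA (SE 0.16, adjusted p = 0.452), and in females 0.12 (SE 0.15, adjusted p = 1) and 0.09 (SE 0.15, adjusted p = 0.758). Without NBC male 2 the male changes of Vtn were -0.7 (adjusted p = 0.00258) and -0.52 (adjusted p = 0.0407), so whether Vtn passed turned on that library. NBC males 3 and 4 are also the male controls with high choroid plexus and fibroblast sums (list medians of -5.72 and -0.91 on the log2 scale in mPIA against NBC males), and the part of those tissues in the level of Vtn was not tested. Vtn correlated with Cldn5 at r = 0.66 (within-group permutation, adjusted p = 0.0313), but at r = 0.34 without NBC male 3 and mPIA male 2, so the relation rests on them. Of the 6 genes listed as receptors and partners of vitronectin, 1 passed in sPIA against NBC females, where 16% of all genes did. It was the integrin subunit Itgav, which rose (log2 0.43, SE 0.1, adjusted p = 0.00327). Itgb1 was lower in mPIA than in NBC males (-0.34, SE 0.08, adjusted p = 0.0391) and higher in sPIA than in mPIA males (0.35, SE 0.07, adjusted p = 0.00989). Mean Itgb1 was 174, 137 and 174 CPM in NBC, mPIA and sPIA males. Without NBC male 4, 0 of all genes passed in mPIA against NBC males.

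The contractile genes were the most variable of the 10. Acta2, smooth muscle actin, lay at 24.6, 10.1, 17.7 and 7.62 CPM in NBC females, 14.4, 18.9, 26.9 and 10.03 CPM in mPIA females and 7.32, 14.79, 3.03 and 7.24 CPM in sPIA females. In males it lay at 9.87, 23.96 and 21.04 CPM in NBC, 31.6, 4.3, 8.57 and 9.79 CPM in mPIA and 16.4, 8.55, 6.23 and 7.66 CPM in sPIA. The lowest and the highest library differed 10.4-fold, and every group overlapped every other. The log2 change of Acta2 in severe anemia was -0.89 in females (SE 0.6, 95% interval -2.14 to 0.36, adjusted p = 0.35) and -0.91 in males (SE 0.62, -2.21 to 0.39, adjusted p = 0.599). A fall of 2 on the log2 scale and no fall are both inside these intervals.

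Tagln, which encodes the actin-binding protein transgelin, lay at 9.58, 4.58, 5.74 and 5.08 CPM in NBC females, 6.02, 6.17, 11.6 and 4.23 CPM in mPIA females and 2.86, 8.46, 1.63 and 4.66 CPM in sPIA females. In males it lay at 4.64, 14.2 and 11.8 CPM in NBC, 12.5, 4.99, 5.01 and 4.26 CPM in mPIA and 8.25, 4.05, 4.51 and 3.75 CPM in sPIA. Severe anemia gave Tagln a log2 change of -0.5 in females (SE 0.5, adjusted p = 0.563) and -0.99 in males (SE 0.52, adjusted p = 0.464), with groups that overlapped. Its counts carry a doubt of their own: 54.984% of its exon bases are overlapped on the opposite strand by the antisense gene Gm48529 and 5.893% by Pcsk7, and no source used here says whether the counting used strand.

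Myh11, the smooth muscle myosin heavy chain, lay at 14.6, 6.15, 9.53 and 5.27 CPM in NBC females, 10.03, 10.7, 15.1 and 7.01 CPM in mPIA females and 6.79, 7.49, 4.71 and 6.79 CPM in sPIA females. In males it lay at 8.83, 14.4 and 13.1 CPM in NBC, 21.8, 4.39, 6.39 and 5.44 CPM in mPIA and 12.6, 8.66, 6.08 and 6.48 CPM in sPIA. For Myh11 the log2 change in severe anemia was -0.47 in females (SE 0.45, adjusted p = 0.548) and -0.52 in males (SE 0.47, adjusted p = 0.707). In sPIA against mPIA females the 3 contractile genes gave -1.13 (Acta2), -0.7 (Tagln) and -0.75 (Myh11), with adjusted p = 0.211 to 0.376. In mPIA against NBC females they gave 0.24, 0.2 and 0.29, each with adjusted p = 1.

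The same libraries were high or low in all 3 contractile genes. With group means removed, r was 0.88 for Acta2 and Tagln, 0.92 for Acta2 and Myh11 and 0.79 for Tagln and Myh11 (rho 0.84, 0.93 and 0.85; within-group permutation over 23 libraries, adjusted p = 0.00024, 0.00018 and 0.00018 for r over 18 pairs). For Acta2 and Myh11 the unadjusted p of 1e-05 is the smallest these permutations can give. Without the 2 libraries farthest from the median of the first gene, r was 0.81, 0.91 and 0.81. mPIA male 1 was the highest library for Acta2 and Myh11, NBC male 3 for Tagln, and sPIA female 3 the lowest for Acta2 and Tagln. The spread within groups was an SD of 0.82, 0.7 and 0.61 on the log2 scale, against 0.17 for the median gene.

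Genes of large vessels and their surroundings followed the contractile genes. Acta2 was most like Eln (r = 0.92, elastin), Fbln5 (0.9, fibulin-5 of elastic fibres) and Slc22a6 (0.87, an organic anion transporter), and Tagln was most like Eln (0.85), Col3a1 (0.82) and Slc22a6 (0.81). The fibroblast collagen Col1a1 correlated with Acta2 at r = 0.78 (adjusted p = 0.0032), with Tagln at 0.77 (adjusted p = 0.0032) and with Myh11 at 0.65 (adjusted p = 0.0157; within-group permutation), and at 0.76, 0.71 and 0.67 without the 2 farthest libraries. Pdgfrb and Col1a1 gave 0.46 (adjusted p = 0.131). The summed fibroblast markers, 20 of 20 with a row and none at 0 in all libraries, lay at 357 to 497 CPM in NBC females, 369 to 483 in mPIA females and 271 to 622 in sPIA females. Male sums were 361 to 933 CPM in NBC, 288 to 416 in mPIA and 375 to 538 in sPIA. The median log2 change of the 19 fibroblast genes tested was 0.01 in sPIA females and -0.45 in sPIA males, and sPIA female 3 and mPIA male 2 were lowest in both the fibroblast and the contractile sums of their groups. The part of vessels or meninges taken with the hippocampus in these levels was not tested.

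**Figure D4:**
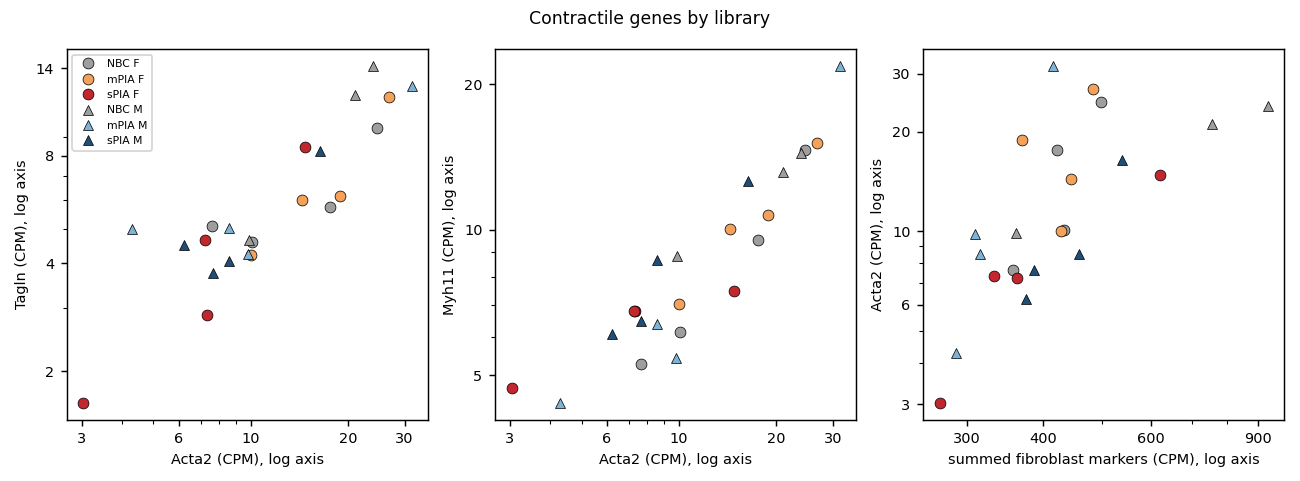
Tagln and Myh11 against Acta2, and Acta2 against the summed level of 20 fibroblast markers (all CPM, log axes), for the 23 libraries; circles are females, triangles males. The 3 contractile genes rise together towards mPIA male 1 and NBC male 3. The lowest library is sPIA female 3 for Acta2 and Tagln and mPIA male 2 for Myh11. The groups overlap along the line but are not evenly mixed. The highest sPIA library in Acta2 is sPIA male 1 at 16.4, while NBC libraries reach 24.6 and mPIA libraries 31.6.

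Serum response factor acts on contractile genes through the CArG box, which is CC, then 6 letters of A or T, then GG. The 250 bases before the RefSeq start of Acta2 (chr19:34255374-34255623, minus strand, GRCm38.p6) are shown because its levels moved with those of other contractile genes, with 2 CArG-like stretches in capitals.
Acta2: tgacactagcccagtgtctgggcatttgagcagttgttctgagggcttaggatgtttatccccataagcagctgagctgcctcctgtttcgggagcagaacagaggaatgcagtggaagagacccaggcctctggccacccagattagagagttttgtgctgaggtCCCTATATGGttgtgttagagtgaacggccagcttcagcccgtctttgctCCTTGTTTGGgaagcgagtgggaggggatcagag
The exact box was in 0 of the 7 windows of members and in 1.629% of the 32851 windows. In a looser search, chosen after the exact one had found none, 1 of the 6 middle letters could be G or C. Acta2 then held CCCTATATGG, 84 to 75 bases before the start, and CCTTGTTTGG, 34 to 25 bases before it, while the windows of Abcc9, Cspg4, Kcnj8, Notch3, Rgs5 and Vtn held none. Acta2 was the only contractile member searched, since no window of Tagln, Myh11 or Pdgfrb was used. Of all windows 9.984% held at least 1 such stretch and 0.822% held 2 or more. The gene of serum response factor, Srf, was at 49.1 ± 3.82 CPM in NBC females and 48.2 ± 1.59 CPM in sPIA females (SD, n = 4 each) and did not pass in any comparison. Myocd, its coactivator in smooth muscle, was near the limit of detection in all groups, with group means of 0.0667 to 0.487 CPM. Of the 8 listed smooth muscle transcription factors that were tested, 1 passed in sPIA against NBC females, where 16% of all genes did. It was Tead1, which rose (log2 0.22, SE 0.07, adjusted p = 0.0444). Mkl1, another coactivator of serum response factor, was lower in sPIA than in mPIA males (-0.37, SE 0.08, adjusted p = 0.0133), where 4.92% of all genes passed.

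Other genes known from pericytes and smooth muscle were read from lists beyond the 10. In sPIA against NBC females, where 16% of all genes passed, 3 of 30 further pericyte genes rose and 1 fell, with a list median of 0.16. These were Ecm2, a matrix protein (log2 0.82, SE 0.25, adjusted p = 0.0282), the integrin Itga1 (0.47, SE 0.15, adjusted p = 0.031), the transcription factor Foxc1 (0.63, SE 0.2, adjusted p = 0.0336) and, falling, Slc19a1 (-0.33, SE 0.11, adjusted p = 0.045). In sPIA males 0 of the 30 passed (0.194% of all genes did), with a median of -0.08, and in mPIA females 0 of 30 (0.00646%). In mPIA males Ecm2 alone passed, as lower (-1.37, SE 0.27, adjusted p = 0.0168). Its level was 4.78, 2.87, 4.39 and 4.3 CPM there, against 5.18, 8.78 and 17.8 CPM in NBC males 2, 3 and 4. NBC males 3 and 4 also held the high sums of fibroblast markers (933 and 756 CPM, against 361 CPM in NBC male 2) and of choroid plexus markers (3520 and 6661 CPM, against 153 CPM). In mPIA against NBC males 0 of 19 fibroblast genes were positive, with a median of -0.91, and the choroid plexus median was -5.72. The sex difference of Ecm2 in severe anemia also passed, at 1.47 on the log2 scale (SE 0.36, adjusted p = 0.0477), females above males, and uses the same NBC males. Both calls rest on NBC male 4: without it the change of Ecm2 in mPIA males was -0.79 (SE 0.23, adjusted p = 0.238) and the sex difference 0.89 (SE 0.3, adjusted p = 0.179), in a fit added after the values had been seen. The part of fibroblasts or choroid plexus in the level of Ecm2 was not tested.

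Of 30 further contractile genes, 2 rose in sPIA females and 0 fell (median 0.06): Cald1, which encodes caldesmon (log2 0.61, SE 0.11, adjusted p = 0.000456), and Tpm1, a tropomyosin (0.25, SE 0.06, adjusted p = 0.00526). Both are expressed well beyond smooth muscle, and their levels of 58.9 and 217 CPM in sPIA females were above those of Acta2, Tagln and Myh11. The smooth muscle tropomyosin Tpm2 and Acta1 were lower in sPIA than in mPIA females (-1.03, SE 0.29, adjusted p = 0.0139 and -0.7, SE 0.24, adjusted p = 0.0454). In that comparison 2 of the 30 genes passed as higher, Cald1 (0.53, SE 0.11, adjusted p = 0.00103) and Tpm1 (0.2, SE 0.06, adjusted p = 0.0203). With 3 that passed as lower, the share was near the 16.1% of all genes. In NBC comparisons of mPIA females, mPIA males and sPIA males 0 of 30 passed, and their medians were 0.08, -0.13 and -0.12. Of all genes 0.00646%, 0.653% and 0.194% passed there.

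Among 20 genes of TGF-beta and angiopoietin signalling, which stabilises vessels, 5 rose and 0 fell in sPIA females, with a median of 0.19, where 16% of all genes passed and 8.12% rose. The leading ones were Tgfbr1 (log2 0.53, SE 0.1, adjusted p = 0.000979), the endothelial coreceptor Eng, also on the list of endothelial markers (0.45, SE 0.1, adjusted p = 0.00417), Tgfb2 (0.45, SE 0.11, adjusted p = 0.00647) and Angpt2, which loosens the contact of pericytes with the endothelium (0.73, SE 0.21, adjusted p = 0.0155). In sPIA males 0 of the 20 passed, where 0.194% of all genes did, and the median was -0.11. Of the 20 sex differences in severe anemia 0 passed (0.95% of all genes did). Eng also rose in mPIA against NBC males (0.46, SE 0.11, adjusted p = 0.0472), but 0 of all genes passed in that comparison without NBC male 4. A fit of only the groups compared also called 0 genes there. Of 13 genes of the vascular basement membrane, Col4a1 (0.43, SE 0.11, adjusted p = 0.0123), Col4a2 (0.39, SE 0.11, adjusted p = 0.0164) and Nid1 (0.42, SE 0.13, adjusted p = 0.0363) rose in sPIA females and 0 fell. In sPIA males 0 of 13 passed, where 0.194% of all genes did. Positive changes were found for 10 of 13 both in sPIA females (median 0.25) and in sPIA males (median 0.09). Over all genes the positive shares were 50% and 50.2%.

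The 24 endothelial markers were read beside the mural genes, and whether their levels follow the amount of endothelium was not tested. In sPIA females 6 rose, among them Kdr (log2 0.57, SE 0.08, adjusted p = 5.43e-05), Vwf (1.39, SE 0.26, adjusted p = 0.00163) and Flt1 (0.57, SE 0.13, adjusted p = 0.00327), and 1 fell, the lipid transporter Mfsd2a (-0.49, SE 0.11, adjusted p = 0.0027). Of all genes 8.12% rose and 7.86% fell in that comparison. The other 17 of the 24 markers did not pass. In all, 16 were positive (50% of all genes), and the list median was 0.14. Their summed level was 702 ± 30.7 CPM in NBC, 772 ± 48.7 CPM in mPIA and 814 ± 30.9 CPM in sPIA females (SD, n = 4 each), and the sPIA libraries (781 to 852) lay above the NBC libraries (677 to 747). In males it was 747 ± 48.6 (n = 3), 772 ± 96.7 (n = 4) and 802 ± 72.4 CPM (n = 4). The summed level of the 10 mural genes divided by that of the 24 endothelial genes was 0.383 ± 0.0231, 0.371 ± 0.0195 and 0.354 ± 0.0417 in NBC, mPIA and sPIA females (SD, n = 4 each). In males the ratio was 0.417 ± 0.0685 (n = 3), 0.353 ± 0.0284 (n = 4) and 0.382 ± 0.0127 (n = 4), and groups of the same sex overlapped. The sum weights genes by level and holds Rgs5, which followed the code prefix, and Cspg4, shared with oligodendrocyte precursors. Rgs5 gave 47.8 to 103 of 258 to 394 CPM in NBC males and 74.6 to 110 of 285 to 349 CPM in sPIA males. The overlap of the ratios can therefore depend on Rgs5, and a ratio without it is not given here. Within groups, the gene closest to the endothelial Cldn5 among those paired with it was Notch3 (r = 0.78, rho 0.75; within-group permutation, adjusted p = 0.00372 and 0.00237), and Pdgfrb gave 0.52 (adjusted p = 0.147).

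The effect of anemia on the 10 genes was compared between the sexes by the difference of the female and the male log2 change. For moderate anemia 0 of 10 passed (background 0%), 8 of 10 differences were positive (47.5% of all genes), and the median was 0.26 against -0.01 for all genes. For severe anemia 0 of 10 passed (background 0.95%), 8 of 10 were positive (50.6% of all genes), and the median was 0.04. The smallest p for moderate anemia was that of Vtn (0.59, SE 0.22, adjusted p = 0.659), where NBC males 3 and 4 set the male side. The intervals were wide for the contractile genes, for instance -1.8 to 1.84 for Acta2 in severe anemia, and narrow for Pdgfrb (-0.24 to 0.3).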

How the data were processed

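Polyadenylated RNA of 23 hippocampi was sequenced by the submitters from Illumina TruSeq libraries, per the labels' protocols. The deposited table gives each gene's raw count of reads, not normalized by the authors. Per the submitters' processing notes, FastQC, TopHat2 2.0.13, Subread and edgeR were used with mm10. Annotation and strand setting: not given in the sources used here. Groups and replicate numbers came from the labels, and 0 columns were left over. All counts were fitted together with edgeR 4.0.16 (quasi-likelihood, robust, 6 group means, TMM, filterByExpr with minimum count 10 and total 15) in R 4.3.3, with Benjamini-Hochberg adjustment at 0.05 over 15475 genes. Changes were compared between levels within each sex and between the sexes. Log2 CPM used a prior count of 2. Correlations used deviations from group means, permuted 100000 times within groups. No 2 replicates were alike within sampling noise (ratio of chi-square to its degrees of freedom 3.09 to 31.3). Alternatives were DESeq2 1.42.0, its size factors, limma-voom 3.58.1, no filter, fewer groups, a replicate block, GC and length offsets (5 spline terms each) and leaving out each library. Positions and exon lengths are from GENCODE M21 (GRCm38, the same build as mm10), which holds 95.614% of the symbols of the table. Upstream sequences are RefSeq windows, which 7 members have. Figures used Python 3.11.15 and matplotlib 3.10.9. The fit was tested on simulated data.

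The genes, the lists and the rule for named genes were chosen with earlier results of these data known. The rule took all 10 members, up to 4 genes of each list that passed in a comparison, by smallest p, 7 partner genes, and the 3 genes most like Pdgfrb, Rgs5, Acta2 and Tagln (average log2 CPM of at least 1). The neighbours of Rgs5 beyond these 3 were chosen after their values were seen. For sPIA against mPIA not all results that the rule covers are given. Among those left out are Tgfb2 in females (log2 0.54) and Smad3 in males (-0.32). The lists covered pericyte, contractile, PDGF, Notch, TGF-beta and angiopoietin, transcription factor, potassium channel, vitronectin and basement membrane genes, and markers of 7 cell types.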

Additional observations from a re-analysis of the deposited data

Results flagged for a closer look

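In groups of 4 libraries, a library was singled out where its gap to the nearest other made up more of the range of the group than Dixon's 95% critical value. This held in 4 of 50 groups examined over the 10 genes, where chance alone gives about 1 in 20. Rgs5 in NBC female 4 was 78.6 CPM, with the other 3 NBC females at 44.2 to 47.2 CPM, and the mPIA female of the same code prefix was at 74.7 CPM. Tagln in mPIA male 1 was 12.5 CPM, with the others at 4.26 to 5.01 CPM. Myh11 in the same library was 21.8 CPM, with the others at 4.39 to 6.39 CPM. Tagln in sPIA male 1 was 8.25 CPM, with the others at 3.75 to 4.51 CPM.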

How the results depend on the processing

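Of the 10 genes, Abcc9 in sPIA females was called in the reported fit and in every alternative run for that comparison. Other calls appeared only in some fits. In sPIA against mPIA females DESeq2 called 1 of the 10 (Abcc9, adjusted p = 0.0481), a fit of only the groups compared called 2 (Abcc9 0.34, adjusted p = 0.0481, and Myh11 -0.76, adjusted p = 0.026), and leaving out single libraries gave 0 to 1 (Abcc9 0.44 without sPIA female 2, adjusted p = 0.0247). In sPIA against mPIA males a fit of only those groups called 1 (Rgs5 0.66, adjusted p = 0.046). Leaving out single libraries gave 0 to 1 in mPIA and in sPIA against NBC males and in the sex difference for mPIA, in each case Vtn without NBC male 2, with 0.82 for the sex difference (adjusted p = 0.0308). The Pdgfrb-Notch3 correlation was 0.65 without NBC male 4 (within-group permutation, adjusted p = 0.0419, against 0.42 and 0.197).

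The replicate numbers did not pair the libraries (mean correlation of deviations 0.004 over 55 same-numbered pairs and -0.001 over 165 others). The replicate block changed no call among the 10 genes, and Abcc9 in sPIA females had adjusted p = 0.0181 with it in its least favourable fit.

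Of 1410 recomputed log2 changes of the 10 genes, 100 turned sign, 0 of them called in either fit, and the reported sizes were at most 0.49. With limma-voom these were Myh11 in sPIA against mPIA males (0.15) and the sex differences of Kcnj8 for mPIA (0.03) and of Rgs5 and Acta2 for sPIA (-0.06 each). DESeq2 turned that of Kcnj8 for mPIA (0.01). With the replicate block they were Pdgfrb in mPIA males (-0.01) and the sex differences of Kcnj8 for mPIA (0.03) and of Rgs5 (-0.05) and Notch3 (0.02) for sPIA. With the GC and length correction they were Pdgfrb in mPIA males (-0.01), Cspg4 in sPIA females (0.03), Vtn in sPIA against mPIA females (0.16), Notch3 in sPIA against mPIA males (0.1) and the sex differences of Kcnj8 for mPIA (0.01) and of Rgs5 (-0.08) and Kcnj8 (0.03) for sPIA. The block and the correction together gave -0.02, 0.03, 0.17 and 0.11 for the same 4 changes, 0.04 for Myh11 in sPIA against mPIA males, and sex differences of 0.03 (Kcnj8) and 0.01 (Cspg4) for mPIA and of -0.13 (Rgs5), 0.04 (Kcnj8) and 0.01 (Notch3) for sPIA.

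The other turns came from leaving out single libraries. In mPIA against NBC females the ranges were -0.01 to 0.07 for Pdgfrb, -0.17 to 0.24 for Rgs5, -0.05 to 0.58 for Acta2, -0.19 to 0.48 for Tagln, -0.04 to 0.09 for Cspg4 and -0.02 to 0.11 for Notch3. In mPIA males they were -0.09 to 0.08 for Pdgfrb, -0.48 to 0.19 for Rgs5, -0.02 to 0.13 for Abcc9 and -0.27 to 0.24 for Notch3, and in sPIA males -0.34 to 0.17 for Notch3. In sPIA against mPIA females Vtn ran from -0.06 to 0.04. In sPIA against mPIA males they were -0.84 to 0.37 for Acta2, -0.69 to 0.12 for Tagln, -0.41 to 0.65 for Myh11 and -0.21 to 0.11 for Notch3. The sex differences for mPIA were -0.04 to 0.12 (Pdgfrb), -0.18 to 0.53 (Rgs5), -0.16 to 0.12 (Kcnj8), -0.15 to 0.01 (Cspg4) and -0.21 to 0.3 (Notch3). Those for sPIA were -0.45 to 0.26 (Rgs5), -0.13 to 0.1 (Kcnj8), -0.44 to 0.4 (Acta2), -0.04 to 0.85 (Tagln), -0.11 to 0.41 (Myh11) and -0.29 to 0.22 (Notch3). The cause was not tested.

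The number of all genes called also moved. It was 1 (0 to 6 over other settings) in mPIA females, 101 (0 to 381) in mPIA males, 2472 (958 to 2870) in sPIA females and 30 (6 to 155) in sPIA males, each against NBC. It was 2499 (1133 to 3312) and 762 (181 to 1220) in sPIA against mPIA females and males. For the sex difference it was 0 (0 to 0) in moderate and 147 (5 to 463) in severe anemia. Leaving out single libraries gave 0 to 1, 0 to 1124, 1421 to 2705, 4 to 249, 1582 to 2769, 230 to 1340, 0 to 69 and 5 to 327 in the same order. Kcnj8, Tagln and Myh11, at under 10 CPM on average, are the members most limited by depth.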

Other observations

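Markers of cell types other than those of vessels were read from lists in the same fit. In sPIA females, where 16% of all genes passed, the astrocyte list had 2 genes higher and 1 lower of 8: Slc1a3 (log2 0.3, SE 0.07, adjusted p = 0.00411), Slc1a2 (0.23, SE 0.08, adjusted p = 0.0463) and, lower, Fgfr3 (-0.39, SE 0.13, adjusted p = 0.0425). Of 13 hippocampal neuron genes 3 were higher and 1 lower: Neurod6 (0.4, SE 0.11, adjusted p = 0.0181), Gria2 (0.28, SE 0.08, adjusted p = 0.0183), Camk2a (0.28, SE 0.08, adjusted p = 0.0185) and Grin1 (-0.22, SE 0.07, adjusted p = 0.026). Of 13 oligodendrocyte precursor genes Neu4 was lower (-0.43, SE 0.12, adjusted p = 0.0119), and of 10 microglial genes 0 passed. Of 19 fibroblast genes tested Col6a2 was lower (-0.62, SE 0.2, adjusted p = 0.0354), and of 15 choroid plexus genes 0 passed. In sPIA males, where 0.194% of all genes passed, Kdr, an endothelial marker, was higher (0.45, SE 0.09, adjusted p = 0.0194). There 0 genes of the other 6 cell type lists passed.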
